A study of Mus musculus with 47 samples.

Results

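The cytosolic ribosome is built from ribosomal RNA and a fixed set of proteins, named Rpl for the large subunit and Rps for the small subunit. Genes for these proteins were taken as every row of the count table whose symbol is Rpl or Rps followed by a number, with the stalk proteins Rplp0, Rplp1 and Rplp2 and the small subunit protein Rpsa. The rule found 80 genes of 14221 in the table, 48 of the large and 32 of the small subunit, and used no measured value. Genes for mitochondrial ribosomal proteins and for S6 kinases do not fall under it. The filter on low counts removed 0 of the 14221 genes, so all 80 were kept.

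The libraries were made from the hypothalamus of male leptin-deficient ob/ob mice of 11 weeks, each given 1 intracerebroventricular (icv) injection of 3 µg of FGF1 or of vehicle, with 1 mouse per library. Vehicle mice were pair-fed to the FGF1 mice and mice were killed 1, 5 or 42 days after the injection. Day 1 had 10 FGF1 mice and 4 vehicle mice labelled non-diabetic. Day 5 had 9 FGF1 mice, 7 vehicle mice labelled non-diabetic and 7 labelled diabetic, and Day 42 had 5 FGF1 mice and 5 vehicle mice labelled non-diabetic. All mice lack leptin, so that no group of lean or leptin-replete mice stands beside them. The 14, 23 and 10 libraries of the 3 days carried 1 preparation code each, and a difference between days cannot be told apart from one between preparations. FGF1 and vehicle mice of a day shared their preparation.

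Ribosomal protein mRNAs are among the most abundant of a cell and their proteins are needed in equal numbers, since each ribosome holds 1 copy of nearly all of them. Their transcripts typically begin with a C followed by a run of pyrimidines, the 5′ TOP tract, through which the kinase mTOR and the RNA-binding protein LARP1 control how much of the mRNA is translated. Transcription factors of the Myc family act on ribosomal protein genes and on the genes for ribosome assembly. In brain tissue the amount of these mRNAs is set by many cell types together, and in bulk tissue a change in the number of cells of a type and a change of RNA per cell cannot be told apart.

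Windows around the annotated start of transcription are printed for 4 of the 5 genes with the largest rises on Day 1 and for the 3 genes that fell, since the tract at this start is what the family is known for. Each window holds 15 bases before and 15 bases from the annotated start in RefSeq on GRCm38.p6, written in the direction of transcription, and capitals mark a run of at least 5 pyrimidines that opens with C within 5 bases of the start. The first 4 genes were higher after FGF1 on Day 1, the next 3 were lower, and Eef1a1, the translation elongation factor with a well-known TOP mRNA, is shown for reference. Rplp1, the remaining gene of the 5, is named only.
Rps10, chr17:27635230-27635259, minus strand: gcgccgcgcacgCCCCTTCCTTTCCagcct
Rps2, chr17:24720048-24720077, plus strand: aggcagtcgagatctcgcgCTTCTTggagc
Rplp0, chr5:115559452-115559481, plus strand: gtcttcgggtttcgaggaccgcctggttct
Rpsa, chr9:120127751-120127780, plus strand: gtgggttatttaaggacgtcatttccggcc
Rpl22l1, chr3:28805493-28805522, plus strand: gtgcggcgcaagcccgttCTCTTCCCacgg
Rps27, chr3:90213634-90213663, minus strand: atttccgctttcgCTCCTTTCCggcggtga
Rps15a, chr7:118116133-118116162, minus strand: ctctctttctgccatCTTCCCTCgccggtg
Eef1a1, chr9:78481710-78481739, minus strand: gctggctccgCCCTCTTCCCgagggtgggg

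Tracts were thus found at the annotated starts of genes that were higher and of genes that were lower, and no such run lay at the listed starts of Rplp0 and Rpsa. An annotated start can lie some bases from the start that is used, so an absent run describes these letters only. The RefSeq table held 71 starts for 60 of the 80 genes, and 43.7% of these starts had a tract, against 18.3% of all 32851 starts in the table. Within the 300 bases listed around each start, and on either strand, CCGGAA was present at 49.3% of the 71 starts against 14.9% of all starts, GGGCGG at 62.0% against 35.7%, AAGATGGC at 11.3% against 2.7% and TATAAA at 9.9% against 13.6%. These strings can share bases with one another and a match is not evidence of a bound factor.

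Totals per library ran from 27370020 to 47082403 counts on Day 1, apart from FGF1 replicate 1 with 1243280 counts, and from 19416026 to 43934003 on Day 42. On Day 5 they ran from 7579695 to 30009258. Levels are given as CPM, the counts of a gene per 1e+06 counts of its library after TMM scaling, and changes as log2 fold changes with standard errors (SE) from an edgeR quasi-likelihood fit over all 47 libraries and 14221 genes. A gene passed at a Benjamini-Hochberg adjusted p below 0.05 over all genes. The neuron markers were present in every library, with a summed level between 2969 and 7267 CPM.

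Together the 80 genes made up a small share of all counts that moved more with the day than with the treatment. On Day 1 their summed level ran from 10483 to 14344 CPM in FGF1 mice, with a median of 12492, and was 12185, 10482, 10741 and 11473 CPM in the 4 vehicle mice. The ranges of the groups overlapped, with 5 FGF1 mice below the highest vehicle mouse and 5 above all vehicle mice. On Day 5 the medians were 14632 CPM in FGF1 mice (range 14120 to 15353), 15151 in non-diabetic vehicle mice (14719 to 15605) and 15292 in diabetic vehicle mice (13906 to 16057). On Day 42 the 5 FGF1 mice had 8595, 9113, 9769, 8190 and 9106 CPM, and the 5 vehicle mice 8414, 9907, 9037, 9045 and 11257 CPM. As a share of all counts, the group medians lay between 0.839% in vehicle mice of Day 42 and 1.62% in diabetic vehicle mice of Day 5.

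**Figure D1:**
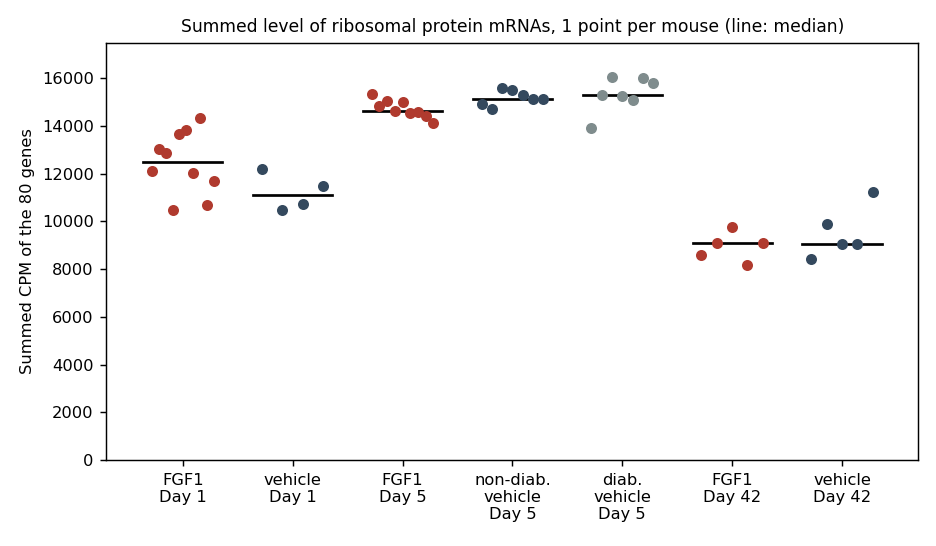
Summed level of the 80 ribosomal protein genes in each mouse (vertical axis, summed CPM) by group (horizontal axis), with FGF1 in red, vehicle in dark grey and diabetic vehicle in light grey, and lines at the medians. FGF1 mice of Day 1 spread from 10483 to 14344 and overlap with the vehicle mice, and all mice of Day 5 lie at or above 13906.

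On Day 1, part of the ribosomal protein mRNAs were higher after FGF1 than after vehicle, by small amounts, and the number depended on single vehicle mice. Of the 80 genes, 33 rose and 3 fell, against a background of 23.4% of all 14221 genes called higher and 21.6% called lower. The log2 fold change was positive for 68 of the 80, with a median of 0.21 and a range from −0.25 to 1.17, where the median of all genes was 0.01. The 33 genes are 41.25% of the members, a larger share than that of all genes, and the 3 genes that fell are 3.75%, a smaller one. A total of 6 members, or 7.5%, passed with a log2 fold change above 0.5, against 11.5% of all genes. Only Rpl12, Rps2 and Rpsa were higher in every FGF1 mouse than in any vehicle mouse, or 3.75% of the members against 7.56% of all genes, and no member was lower in every FGF1 mouse, against 6.81% of all genes. Both subunits took part, with 19 higher and 1 lower of 48 genes and a median of 0.19 in the large subunit, and 14 higher and 2 lower of 32 genes and a median of 0.24 in the small subunit. The counts rested in part on the vehicle mice: without vehicle replicate 2, the mouse with the lowest summed level, 15 genes were higher and 0 lower, and without vehicle replicate 3, 20 were higher. These are 18.75% and 25% of the members, against 19.2% and 22.4% of all genes under the same settings, so that the share of higher members was then close to that of all genes. Without vehicle replicate 1, 36 were higher (45%, against 21.1% of all genes) and 1 lower, Rps15a. In a fit of the Day 1 libraries alone, 13 members were higher and 0 lower, or 16.25% higher against 17.6% of the genes tested there, and 0% lower against 15.8%. The median log2 fold change was 0.14 without replicate 2, 0.17 without replicate 3 and 0.21 in the fit of Day 1 alone.

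**Figure D2:**
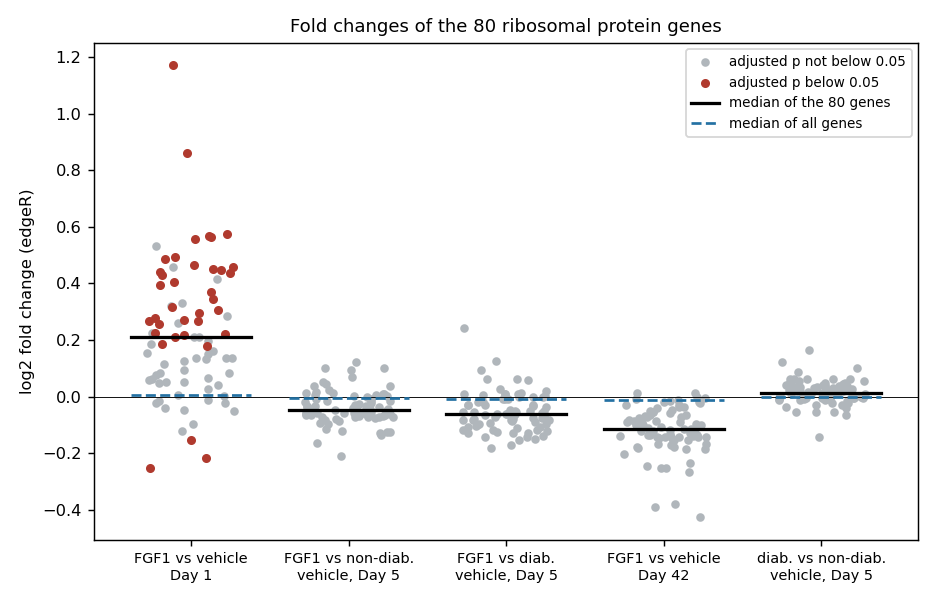
Log2 fold change of each of the 80 ribosomal protein genes (vertical axis) in the 5 comparisons between groups (horizontal axis), with genes that passed in red, the median of the 80 genes as a solid line and the median of all genes as a dashed line. Passing genes appear in the Day 1 comparison only, where the median is 0.21, and those of FGF1 against vehicle on Days 5 and 42 lie between −0.12 and −0.05, and that of the vehicle groups is 0.01.

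The stalk of the large subunit, which recruits the translation GTPases, held the largest change of a well-expressed member. Rplp0, the stalk base (chr5:115559467-115563727, plus strand), was at 59.4, 81.1, 110 and 113 CPM in vehicle mice of Day 1 and between 109 and 215 CPM in FGF1 mice, with a median of 172. FGF1 mice lay above all vehicle mice in 9 of 10 cases. Its fold change was 1.82, a log2 value of 0.86 ± 0.15 (SE), with an adjusted p of 9.36e-06. Rplp1, a stalk tip protein, had a median of 76.4 CPM in FGF1 mice (40.0 to 113) and 27.9, 36.9, 72.3 and 74.0 CPM in vehicle mice, and the groups overlapped widely. Its log2 fold change of 0.57 ± 0.24 passed narrowly (adjusted p = 0.0496). Rplp2, its partner at the tip, was at a median of 46.3 CPM in FGF1 mice and 32.8 in vehicle mice, with 0.46 ± 0.20 and an adjusted p of 0.053, which did not pass.

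In the small subunit, Rpsa and Rps2 separated the groups fully. Rpsa, the laminin receptor homologue on the small subunit (chr9:120127689-120132369, plus strand), was at 194, 257, 288 and 302 CPM in vehicle mice of Day 1 and at 314 to 452 CPM in FGF1 mice. All 10 FGF1 mice lay above all 4 vehicle mice, and the log2 fold change was 0.56 ± 0.09 (adjusted p = 9.31e-07). Rps2, a protein of the mRNA entry channel (chr17:24718116-24721929, plus strand), was at 115, 146, 149 and 154 CPM in vehicle mice and at 169 to 259 CPM in FGF1 mice, again without overlap. Its log2 fold change was 0.57 ± 0.10 (adjusted p = 5.1e-06). In the large subunit only Rpl12, a protein at the foot of the stalk, showed the same separation, with 163 ± 21.0 CPM (SD, n = 10) in FGF1 mice and 124 ± 11.2 CPM (SD, n = 4) in vehicle mice.

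Rps10 had the largest log2 fold change of the family, 1.17 ± 0.13 (adjusted p = 8.83e-10), at very low levels. It was at 1.55, 2.26, 2.34 and 2.52 CPM in vehicle mice of Day 1. FGF1 mice ranged from 0.815 to 5.85 CPM with a median of 5.02, and the mouse at 0.815 CPM is the library with 1243280 counts. The other 9 FGF1 mice were above all vehicle mice. Rps10 overlaps the annotated gene RPS10-NUDT3 on its strand, and 7.6% of the 50-base stretches of its transcript are found in no other gene's transcript. Its mean in non-diabetic vehicle mice of Day 5 was 110 CPM.

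Other proteins that the family is known for moved less. Rps6, the target of the S6 kinases, was at a median of 135 CPM in FGF1 mice and 116 CPM in vehicle mice of Day 1, and rose by a log2 value of 0.19 ± 0.06 (adjusted p = 0.0117). Rpl5 and Rpl11, which bind 5S ribosomal RNA and can hold back the p53 inhibitor Mdm2, did not pass. Rpl5 had a median of 120 CPM in FGF1 mice (91.0 to 141) and 107 CPM in vehicle mice (104 to 135), with a log2 fold change of 0.06 ± 0.08 (adjusted p = 0.594). Rpl11 had medians of 133 and 122 CPM and a log2 fold change of 0.15 ± 0.10 (adjusted p = 0.226). Both ranges overlapped.

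The table holds 3 paralogs beside the genes they resemble. Rpl22l1 and its parent Rpl22, of which the protein is known to bind the mRNA of the paralog and to lower it, moved in opposite directions on Day 1. Rpl22 (chr4:152325742-152334071, plus strand) was at 92.3, 93.9, 94.7 and 96.2 CPM in vehicle mice and at 94.2 to 121 CPM in FGF1 mice, of which 8 of 10 were above all vehicle mice. It rose by 0.22 ± 0.05 on the log2 scale (adjusted p = 0.00089). Rpl22l1 (chr3:28805436-28807424, plus strand) was at 109, 130, 144 and 169 CPM in vehicle mice and at 86.7 to 159 CPM in FGF1 mice, with wide overlap. It fell by 0.25 ± 0.10 (adjusted p = 0.0425).

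Rps27l, known as a target gene of p53, was at 13.2, 13.9, 19.0 and 21.3 CPM in vehicle mice of Day 1 and at 18.9 to 30.1 CPM in FGF1 mice. It rose by 0.44 ± 0.11 on the log2 scale (adjusted p = 0.00142), with 6 of 10 FGF1 mice above all vehicle mice. Its parent Rps27 was at 191, 228, 240 and 251 CPM in vehicle mice and at 160 to 242 CPM in FGF1 mice, and fell by 0.22 ± 0.08 (adjusted p = 0.0163). Of the 50-base stretches of Rps27, 1.4% are found in no other gene's transcript and other sources of its reads were not tested. Rpl7l1, a paralog that acts in assembly of the large subunit, had a median of 70.3 CPM in FGF1 mice (58.7 to 75.8) and 55.6 CPM in vehicle mice (47.2 to 66.3), and rose by 0.32 ± 0.06 (adjusted p = 6.39e-05). Its parent Rpl7 had medians of 370 and 369 CPM and did not pass (−0.05 ± 0.06, adjusted p = 0.464). The remaining gene that fell on Day 1 was Rps15a, at 255, 275, 275 and 307 CPM in vehicle mice and 230 to 266 CPM in FGF1 mice, by 0.15 ± 0.06 (adjusted p = 0.0364).

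In two-sided exact permutation tests over the mice of Day 1, the smallest p that 10 and 4 mice allow for one gene, 0.002, was reached by Rps2 and Rpsa. Without adjustment over genes, p was 0.00599 for Rplp0, 0.00999 for Rpl22, 0.012 for Rps15a, 0.014 for Rpl7l1, 0.02 for Rps27l, 0.0639 for Rps10, 0.0819 for Rps27, 0.124 for Rpl22l1 and 0.14 for Rplp1. Of the 26 members to be named, 8 had an unadjusted p below 0.05, of which 7 were higher after FGF1 and Rps15a lower. Some of the 26 were named for a small p in these same comparisons, so the count is a description.

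**Figure D3:**
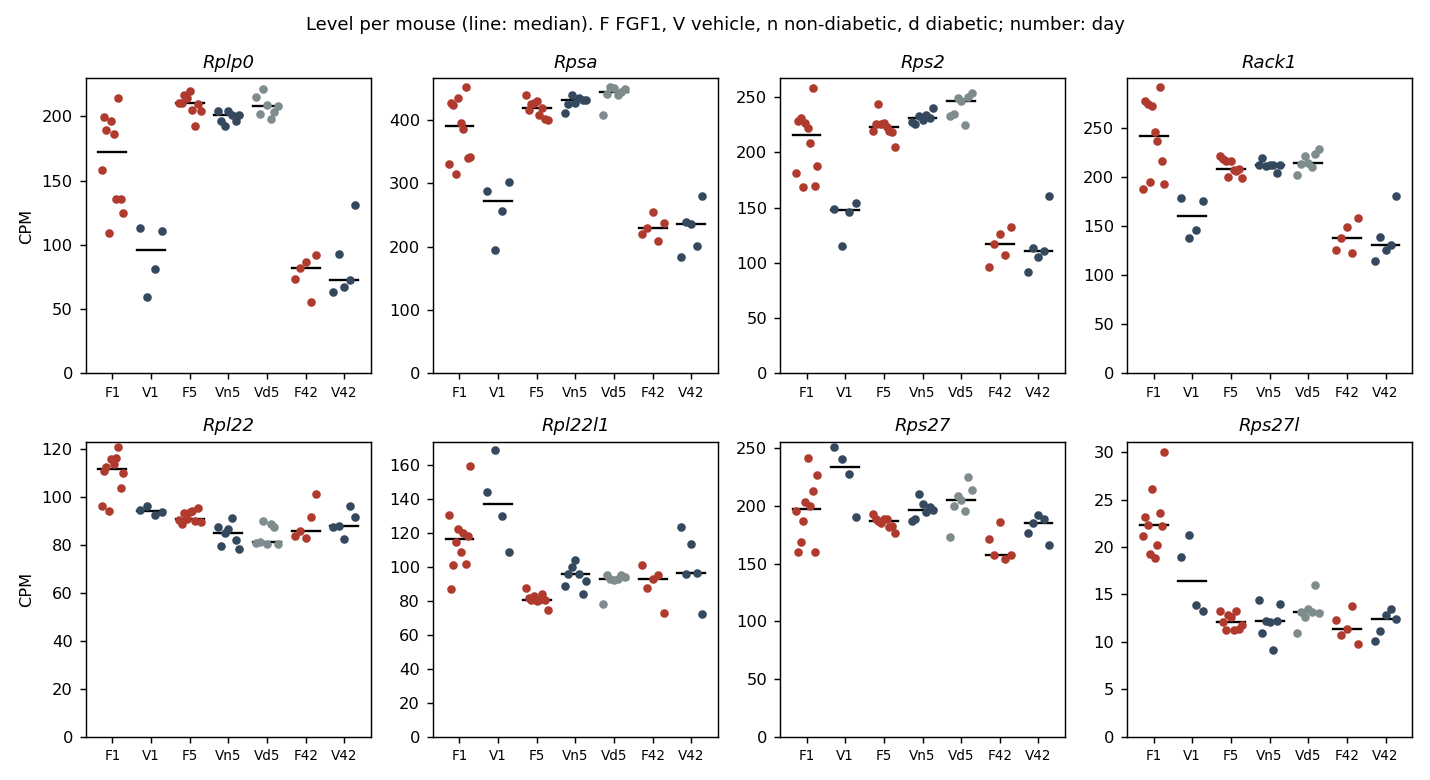
Level (vertical axes, CPM from 0) of 7 ribosomal protein genes and Rack1 in each mouse by group (horizontal axes, F for FGF1, V for vehicle, n for non-diabetic, d for diabetic, number for the day), with lines at the medians. Rpsa and Rps2 of FGF1 mice on Day 1 lie above all vehicle mice of that day, and the FGF1 and vehicle points of Day 42 overlap in all 8 panels.

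Mice of a group differed in the level of the whole family. In each library the median difference of the 80 genes from the vehicle mean of its day ran from −0.10 to 0.44 on the log2 scale among FGF1 mice of Day 1, with 8 of 10 above 0, and from −0.19 to 0.15 among their vehicle mice. FGF1 replicates 4 and 9 were below 0, with 23 and 32 of the 80 genes above the vehicle mean, whereas 75 of 80 were above it in replicate 8. The spread between mice was smaller on Day 5, for the members and for all genes. The median SD of a member's log2 CPM was 0.05 among FGF1 mice, 0.05 among non-diabetic and 0.09 among diabetic vehicle mice. On Day 1 it was 0.22 among FGF1 and 0.19 among vehicle mice. Over all genes the median SD was 0.11, 0.11 and 0.12 in the same groups of Day 5, and 0.21 and 0.22 on Day 1. Across the 80 genes, the Day 1 log2 fold change had a Spearman correlation of 0.68 with the SD among vehicle mice of Day 42, which share no library with it, and of 0.60 with the GC content of the transcript, which ran from 40.6% to 60.8%. Across 14180 genes with an annotated transcript the correlation of GC content with the Day 1 log2 fold change was 0.25. The genes share libraries and base composition, and the part of GC content in the changes was not tested. With GC content corrected, 28 members were higher and 4 lower on Day 1, or 35% and 5%, against 23.7% and 31.1% of all genes under the same correction, with medians of 0.15 for the members and −0.04 for all genes.

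On Day 5 no member passed against either vehicle group, and most values were slightly below 0. Against non-diabetic vehicle mice, 19 of 80 log2 fold changes were positive and the median was −0.05, where that of all genes was −0.01. The edgeR fit called 0 members in either direction, against 3.25% of all genes higher and 1.4% lower. At an unadjusted p below 0.05 there were 1 higher and 3 lower, or 1.25% and 3.75%, against 9.56% and 6.95% of all genes, and DESeq2 and limma called 0. Against diabetic vehicle mice, 15 of 80 were positive with a median of −0.06. Here too 0 members were called, against 5.79% of all genes higher and 3.42% lower, and 0 were called by DESeq2 and limma. At an unadjusted p below 0.05 there were 2 higher and 4 lower, or 2.5% and 5%, against 12% and 9.77% of all genes. Both comparisons use the same FGF1 mice. A fit of the Day 5 libraries alone, in which the spread between mice is not shared with the other days, called 2 members higher and 8 lower against non-diabetic vehicle mice, with 11.8% and 9.13% of all genes called, and 3 higher and 19 lower against diabetic vehicle mice, with 16.7% and 14.2%. Diabetic vehicle replicate 1 had the lowest summed level of its group, and without it Rpl7l1, Rpl9 and Rps25 passed as lower in the fit over all days, or 3.75% of the members against 3.19% of all genes.

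The smallest p-values of Day 5 against non-diabetic vehicle mice belonged to Rpl22 and Rpl9. Rpl22 had a median of 90.7 CPM in FGF1 mice (88.7 to 95.6) and 85.1 CPM in non-diabetic vehicle mice (78.3 to 91.1), with a log2 fold change of 0.12 ± 0.05 (adjusted p = 0.144). In diabetic vehicle mice its median was 81.2 CPM (80.4 to 89.9), with 0.13 ± 0.05 and an adjusted p of 0.0845. Its paralog Rpl22l1 had a median of 80.6 CPM in FGF1 mice (74.8 to 87.7), 95.4 in non-diabetic vehicle mice (84.1 to 104) and 93.0 in diabetic vehicle mice (78.2 to 95.2), with a log2 fold change of −0.21 ± 0.09 against the former (adjusted p = 0.212). The signs of both genes were those of Day 1, and neither passed in the fit over all days. In exact permutation tests over the mice of Day 5, without adjustment over genes, p against non-diabetic vehicle mice was 0.00122 for Rpl22 and 0.000524 for Rpl22l1, and against diabetic vehicle mice 0.000699 and 0.00245. Rpl9 had a median of 373 CPM in FGF1 mice and 414 CPM in non-diabetic vehicle mice, with −0.13 ± 0.05 (adjusted p = 0.173). Rpl13a, which overlaps the annotated gene Gm45713 on its strand, had a median of 14.4 CPM in FGF1 mice and 12.7 CPM in diabetic vehicle mice, with 0.24 ± 0.09 (adjusted p = 0.0646). Rplp0 was at 209 ± 8.05 CPM (SD, n = 9) in FGF1 mice and 199 ± 4.48 CPM (SD, n = 7) in non-diabetic vehicle mice, with a log2 fold change of 0.07 ± 0.13. Its unadjusted exact permutation p was 0.0131 there, and that of Rpl9 was 0.00122. Of the 26 named members, 2 higher and 8 lower had an unadjusted exact permutation p below 0.05 against non-diabetic vehicle mice, and 3 higher and 11 lower against diabetic vehicle mice. Rpl22, Rpl9 and Rpl13a were named for their small p in these comparisons and the test was not run on other genes, so these counts are a description and have no background. These tests and the fit of Day 5 alone use the spread between mice of Day 5, and the fit over all days shares 1 estimate of the spread with the other days, where it was larger.

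No member passed between the vehicle groups of Day 5. Diabetic mice against non-diabetic mice gave 54 of 80 positive values with a median of 0.01. Without diabetic vehicle replicate 1, 69 of 80 values were positive and the median was 0.04. With all mice, edgeR, DESeq2 and limma called 0 members, where edgeR called 0% of all genes in either direction. At an unadjusted p below 0.05 edgeR gave 0 members, against 0.584% of all genes higher and 0.774% lower. The 2 members with the smallest p were Rpl7l1 (0.10 ± 0.06) and Rpl13a (−0.14 ± 0.09), each with an adjusted p of 1.00. In exact permutation tests without adjustment, 2 of the 26 named members had a p below 0.05, Rplp0 (0.0233) and Rps2 (0.0443), both higher in diabetic mice by 0.06 on the log2 scale. This count has no background over all genes.

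On Day 42, 77 of 80 log2 fold changes were below 0, with a median of −0.12 and −0.01 for all genes, yet no member passed. The edgeR, DESeq2 and limma fits called 0 members, edgeR called 0% of all genes in each direction, and 0 members higher and 5 lower (6.25%) had an unadjusted p below 0.05, against 3.07% and 2.39% of all genes. Without vehicle replicate 5, which had the highest summed level of its day, 34 of 80 values were positive and the median was −0.01. The smallest p belonged to Rpl14, at 126, 134, 145, 120 and 126 CPM in FGF1 mice and 135, 157, 135, 142 and 181 CPM in vehicle mice (−0.20 ± 0.09, adjusted p = 0.807). Rpl17 followed, at 202, 203, 214, 191 and 199 CPM in FGF1 mice and 213, 227, 222, 240 and 213 CPM in vehicle mice (−0.14 ± 0.06, adjusted p = 0.844). The ranges of Rplp0, Rpsa and Rps2 overlapped between the groups, with log2 fold changes of −0.13 ± 0.16, 0.01 ± 0.09 and −0.01 ± 0.10. Of the 26 named members, 5 had an unadjusted exact permutation p below 0.05 on Day 42, all lower after FGF1, namely Rpl17, Rps20 and Rps24 (0.0238 each) and Rpl9 and Rpl23 (0.0317 each). Rpl17, Rpl23 and Rps24 were named for their small p in comparisons that used these mice and the test was not run on other genes, so this count is a description and has no background.

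For part of the members the FGF1 effect was smaller on Day 5 than on Day 1. Each day had its own preparation, so a difference of effects between days cannot be told apart from one between preparations. As a difference of log2 fold changes, with the non-diabetic vehicle mice of Day 5, 73 of 80 members had a negative value, with a median of −0.24, where that of all genes was −0.02. Of the 80 members, 20 passed as lower and 0 as higher, against 14.2% and 12.4% of all genes. The smallest p-values were those of Rps10 (−1.18 ± 0.16, adjusted p = 1.32e-07), Rpsa (−0.60 ± 0.11, adjusted p = 6.3e-05) and Rps2 (−0.62 ± 0.13, adjusted p = 0.000158). The mean of Rps10 in vehicle mice was 2.17 CPM on Day 1 and 110 CPM in the non-diabetic vehicle mice of Day 5, and it was not tested whether the same reads were counted for it on both days. Rpl12, Rpl7l1 and Rplp0 followed, with differences of −0.45 ± 0.11, −0.36 ± 0.08 and −0.79 ± 0.19. In DESeq2, 0 members passed as higher and 14 (17.5%) as lower, against 15% and 12.2% of all genes. Without the 2 Day 5 FGF1 libraries of more than 20000000 counts 11 passed, and without vehicle replicate 2 or 3 of Day 1 also 11. These 11 are 13.75% of the members, against 13%, 11.3% and 14.5% of all genes under the same settings, where the 20 are 25%. Between Day 5 and Day 42 edgeR, DESeq2 and limma called 0 members, against 0.295% of all genes higher and 0.647% lower, with 0 higher and 2 lower (2.5%) at an unadjusted p below 0.05, against 4.64% and 5.34% of all genes. The smallest p-values there were those of Rpl23 (−0.18 ± 0.08, adjusted p = 0.436), Rpl13a (−0.28 ± 0.13, adjusted p = 0.465) and Rps24 (−0.14 ± 0.08, adjusted p = 0.591).

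Levels without FGF1 differed far more between days than between treatments. In non-diabetic vehicle mice, 54 of 80 members were higher in every mouse of Day 5 than in any mouse of Day 1, and 9 lower, against 27.3% and 28.3% of all genes, and the median ratio of the means was 1.5, against 0.992 over all genes. Rpl24 was at 0.535 to 1.48 CPM on Day 1 and at 158 to 163 CPM on Day 5. Rps10 was at 1.55 to 2.52 and at 101 to 118 CPM, and Rpl36, Rplp1, Rps29 and Rpl19 had Day 5 means 8.85, 6.12, 5.20 and 4.38 times those of Day 1. In the other direction, Rpl23a was at 97.3 CPM on Day 1 and 31.8 on Day 5, and Rps16 at 69.4 and 29.1 CPM. Day 42 was much closer to Day 1, with ratios from 0.576 to 1.24 and a median of 0.876, and no member was above 2-fold. On Day 42, 18 members (22.5%) were lower in every vehicle mouse than in any vehicle mouse of Day 1, against 9.72% of all genes, and 0 were higher, against 9.28%. Rpl24, Rps10, Rpl19, Rpl32 and Rpl13a each overlap another annotated gene on the same strand, 79 of the 80 members share a 50-base stretch with a pseudogene, and up to 120 pseudogenes share one with a single member. Day and preparation cannot be told apart, and levels between days are given as a description only.

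**Figure D4:**
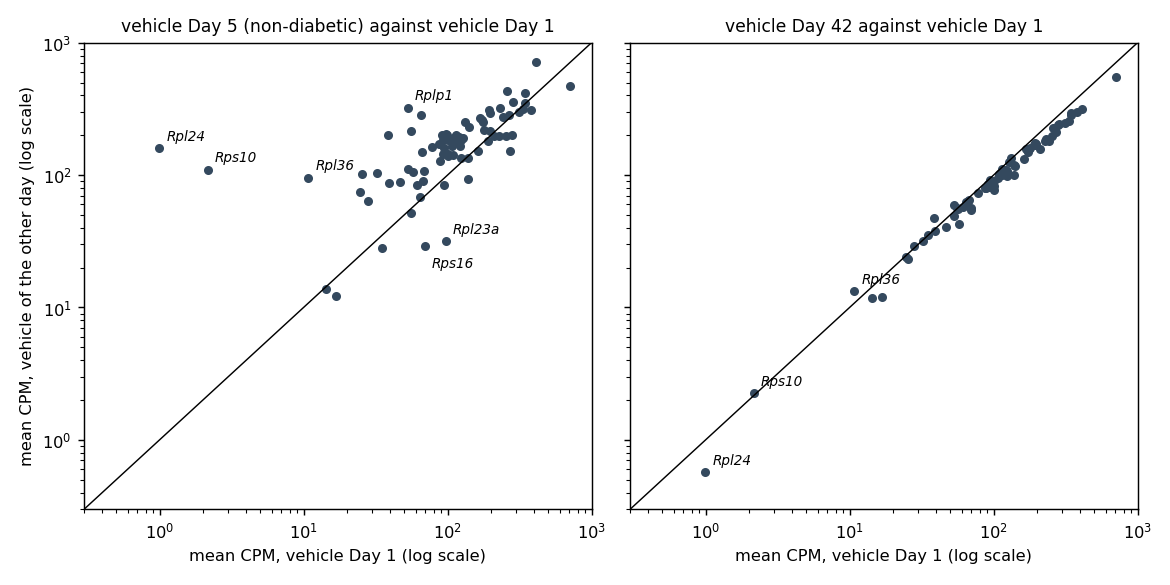
Mean CPM of each of the 80 genes in non-diabetic vehicle mice of Day 1 (horizontal axes) against those of Day 5 (left, vertical axis) and Day 42 (right), all on log scales, with the line of equal level. Rpl24 and Rps10 are at or below 2.25 CPM on Days 1 and 42 and at 160 and 110 CPM on Day 5, and the points of Day 42 follow the line.

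Per kilobase of transcript, and over all libraries, the highest mean levels were those of Rps27 with 560 CPM per kb, Rpl9 with 523, Rpl26 with 400, Rpl3 with 394 and Rps15 with 392. The lowest were Rps20 with 35.8 CPM per kb, for which the chosen transcript is long, Rps27l with 29.8 and Rpl13a with 13.5. The order differed between days. In vehicle mice of Day 1 the lowest were Rpl24 with 1.47 CPM per kb and Rps10 with 4.35, and the highest Rps27 with 659. On Day 42 the same genes were at both ends in vehicle mice, with 0.848, 4.52 and 527 CPM per kb. In non-diabetic vehicle mice of Day 5 the highest was Rplp1 with 648 CPM per kb, against 106 on Day 1, and the lowest Rpl13a with 13.1. Nearly all proteins of 1 ribosome are present in equal numbers. The means of the mRNAs as counted here ran from 1.47 to 659 CPM per kb in vehicle mice of Day 1. In non-diabetic vehicle mice of Day 5 they ran from 13.1 to 648.

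Rack1 and Fau, which encode ribosomal proteins under other symbols, were looked at in the same way. Rack1, a scaffold on the head of the small subunit, was at 138, 146, 175 and 178 CPM in vehicle mice of Day 1 and at 187 to 291 CPM in FGF1 mice, without overlap, and rose by 0.59 ± 0.09 on the log2 scale (adjusted p = 1.51e-06). Fau, made as a fusion of a ubiquitin-like protein with a small subunit protein, did not pass (0.19 ± 0.16, adjusted p = 0.347). On Day 5 neither Rack1 nor Fau passed against either vehicle group.

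Further genes of protein synthesis gave the following counts on Day 1, to be read against 23.4% higher and 21.6% lower among all genes. Of 36 ribosome assembly factors, 24 rose and 0 fell, with a median of 0.35, led by Bysl (1.07 ± 0.12), Ltv1 (1.02 ± 0.09) and Bop1 (0.86 ± 0.14). Of 65 translation factors 25 rose and 8 fell, with a median of 0.13, among them the helicase Eif4a1 (0.73 ± 0.07) and, in the other direction, its paralog Eif4a2 (−0.28 ± 0.09). Of 77 mitochondrial ribosomal protein genes 24 rose and 6 fell, with a median of 0.10. The largest rise there was that of Mrps6, at 76.8 ± 15.3 CPM (SD, n = 10) in FGF1 mice and 19.5 ± 3.32 CPM (SD, n = 4) in vehicle mice. Of 78 nuclear genes of the respiratory chain, which serve as another abundant housekeeping set, 3 rose and 11 fell, with a median of −0.03.

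The list of other TOP mRNAs was taken from general knowledge of the class and not from the annotated starts, at which Eef2 and Tpt1 had no tract by the definition used for the windows. Of 21 in the table, 5 rose and 4 fell on Day 1, with a median of 0.05, where 23.4% of all genes were called higher and 21.6% lower. Pabpc1, the poly(A)-binding protein, rose by 0.80 ± 0.08, Tpt1 by 0.42 ± 0.08 and Eef1a1 by 0.15 ± 0.05, whereas Eif4b fell by 0.27 ± 0.05 and Eif3e by 0.29 ± 0.10. Eef2 (0.31 ± 0.14, adjusted p = 0.0635) and Npm1 (−0.07 ± 0.08, adjusted p = 0.492) did not pass.

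Of 19 genes known to act on ribosomal protein mRNAs, 6 rose and 2 fell on Day 1. This count and that of the p53 targets below are to be read against 23.4% of all genes called higher and 21.6% lower. Myc was at 2.89 to 5.44 CPM in vehicle mice and at 13.4 to 25.6 CPM in FGF1 mice, without overlap, and rose by 2.18 ± 0.20 (adjusted p = 1.04e-12). Eif4ebp1, an inhibitor of cap-dependent translation, rose by 1.97 ± 0.22 from 0.973 CPM in vehicle mice, Larp1 by 0.34 ± 0.06 and Mycn by 1.06 ± 0.21, and Tsc1, a brake on mTOR, fell by 0.41 ± 0.07. Mtor itself did not pass (0.03 ± 0.05, adjusted p = 0.636). Of 16 target genes of p53, 6 rose and 3 fell, with Eda2r (1.95 ± 0.25) and Aen (0.74 ± 0.08) among the former and Trp53inp1 (−1.40 ± 0.14) and Sesn1 (−0.74 ± 0.06) among the latter, while Mdm2 (0.08 ± 0.06, adjusted p = 0.276) and Cdkn1a (0.47 ± 0.27, adjusted p = 0.152) did not pass.

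On Day 5 against non-diabetic vehicle mice, the same lists gave 0 of 36 assembly factors, 1 of 65 translation factors (lower), 1 of 77 mitochondrial ribosomal protein genes (higher), 1 of 21 other TOP mRNAs (lower) and 2 of 78 respiratory chain genes (lower). Regulators gave 1 of 19 (higher) and p53 targets 0 of 16. In that comparison 3.25% of all genes were called higher and 1.4% lower. Against diabetic vehicle mice, where 5.79% of all genes were called higher and 3.42% lower, 2 assembly factors, 3 translation factors, 2 other TOP mRNAs and 2 respiratory chain genes were lower and 0 of these lists' genes were higher. Mitochondrial ribosomal protein genes gave 3 higher and 2 lower there, regulators 1 higher and 1 lower, and p53 targets 0. On Day 42, where edgeR called 0% of all genes, no list held a called gene.

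**Figure D5:**
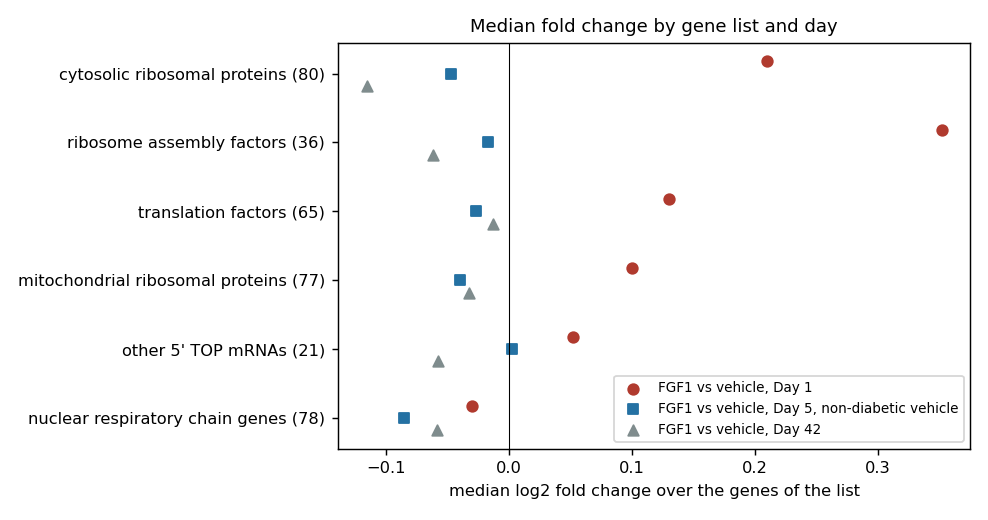
Median log2 fold change of FGF1 against vehicle (horizontal axis) over the genes of each list (vertical axis, number of genes in the table in brackets) on Day 1 (circles), Day 5 against non-diabetic vehicle (squares) and Day 42 (triangles). On Day 1 the medians run from −0.03 for respiratory chain genes to 0.35 for assembly factors, with 0.21 for cytosolic ribosomal proteins.

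Markers of several cell types moved with FGF1 on Day 1, and their part in the changes above was not tested. The marker counts of Day 1 are to be read against 23.4% of all genes called higher and 21.6% lower. Of 8 oligodendrocyte markers 7 fell and 0 rose, with a summed level of 2272 to 4185 CPM in FGF1 mice and 3647 to 5339 CPM in vehicle mice. Of 10 neuron markers 3 fell and 0 rose, with 4308 to 5360 against 5380 to 6626 CPM. Of 8 astrocyte markers 2 rose and 5 fell, with 4818 to 5876 against 4497 to 5128 CPM, and Gfap, the marker of reactive astrocytes, rose by 2.81 ± 0.19. Of 9 microglia markers 7 rose and 1 fell (277 to 387 against 231 to 270 CPM), of 7 phagocyte and leukocyte markers 6 rose (47.8 to 98.4 against 23.7 to 32.3 CPM), and of 6 markers of cycling cells all 6 rose (85.1 to 134 against 50.7 to 62.4 CPM). Of the markers of ependymal cells 4 of 6 fell, of tanycytes 3 of 7, of choroid plexus 2 of 5, and of red blood cells 0 of 4 changed. Endothelial markers gave 1 higher and 2 lower of 6, and those of meningeal fibroblasts 2 higher and 2 lower of 6. No marker in the table was at 0 in all mice of any group. On Day 5 against non-diabetic vehicle mice, where no member passed, 4 of 8 oligodendrocyte, 4 of 8 astrocyte, 5 of 9 microglia, 3 of 7 phagocyte and leukocyte, 3 of 6 meningeal fibroblast, 1 of 6 endothelial and 1 of 6 cycling cell markers were higher and 0 of their genes lower. The other marker lists held no called gene there, where 3.25% of all genes were called higher and 1.4% lower. The meningeal markers had the largest median of these lists, 0.94, with a summed level of 86.9 to 293 CPM in FGF1 mice and 50.4 to 149 CPM in vehicle mice. Against diabetic vehicle mice, 5 of 8 oligodendrocyte, 4 of 8 astrocyte, 8 of 9 microglia, 3 of 7 phagocyte and leukocyte, 3 of 6 endothelial, 3 of 6 ependymal, 1 of 6 meningeal fibroblast and 1 of 6 cycling cell markers were higher. No gene of the marker lists was called lower there, and the neuron, tanycyte, choroid plexus and red blood cell lists held no called gene. Among all genes, 5.79% were called higher against diabetic vehicle mice and 3.42% lower.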

How the data were processed

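Poly(A) RNA of the hypothalamus of 47 mice was sequenced with a strand-specific kit, and the study's methods name STAR for alignment; the counting program is not given in the sources used here. The authors deposited whole-number counts per gene symbol, without normalization. A deposited sample sheet gave the preparation code. From these counts, edgeR 4.0.16 under R 4.3.3 was used with TMM factors, filterByExpr (0 genes removed), 1 mean per group over all libraries and the quasi-likelihood F test, adjusted by Benjamini-Hochberg over 14221 genes with a threshold of 0.05. Depth ran from 1243280 to 47082403 counts per library. Values after ± are SDs between the mice of a group where so marked. For log2 fold changes they are SEs from the fit over all libraries, which shares its estimate of the spread between days. Both include counting error.

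The members and gene lists were chosen with earlier results of these data known. Named members are, for each comparison, up to 5 per direction with the largest change among those passing, or the 2 with the smallest p where none passed, along with the stalk proteins, Rpsa, Rpl5, Rpl11, Rps6, paralogs with their parents, the 5 highest and 3 lowest per kb, and the 3 with the smallest p in each difference between days. For single genes, mean log2(CPM + 0.5) was set against all regroupings of the mice in an exact, two-sided permutation test. Rpl12 and the members named for their levels between days (Rpl24, Rpl36, Rps29, Rpl19, Rpl23a and Rps16) were chosen after their values were seen.

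Coordinates, transcript lengths and shared 50-base stretches come from GENCODE annotation of GRCm38, with 1 principal transcript per gene, and start windows from RefSeq on GRCm38.p6. The build named in the study's methods was not used. Lists were markers of neurons, astrocytes, oligodendrocytes, microglia, phagocytes and leukocytes, endothelium, meningeal fibroblasts, tanycytes, ependyma, choroid plexus, red blood cells and cycling cells, and the sets of protein synthesis named in the text. Results were recomputed with DESeq2 1.42.0, with the DESeq2 scaling inside edgeR, TMM without the members, library totals, quantile normalization with limma 3.58.1, no filter, a minimum of 10 counts per library for each gene, the 3 days fitted separately, a log2 fold change above 0.5 as well, merged vehicle groups, left-out mice and, chosen after seeing the data, a correction for GC content and a fit without diabetic vehicle replicate 1 of Day 5. The edgeR fit was tested on simulated data with known changes. The result for 1 further gene is not reported here.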

Additional observations from a re-analysis of the deposited data

Results flagged for a closer look

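Among 126 sets of values (the summed level and 17 members in each of 7 groups), 9 held a mouse that stood apart from the others of its group by Dixon's criterion, where chance alone marks about 1 in 20. The lowest mouse stood apart for Rpsa (407 CPM, next 439), Rpl22l1 (78.2, next 92.2), Rpl7l1 (47.5, next 54.3) and Rps15a (172, next 201) among diabetic vehicle mice of Day 5, for Rps10 (0.815, next 3.54) and Rpl7l1 (58.7, next 66.8) among FGF1 mice of Day 1, and for Rpl7 (274, next 306) among vehicle mice of Day 42. The highest mouse stood apart for Rpl5 (135, next 108) among vehicle mice of Day 1 and for Rpl13a (26.9, next 19.8) among FGF1 mice of Day 1. The 4 low values among diabetic vehicle mice of Day 5 belong to 1 mouse, replicate 1, which also had the lowest summed level of its group, 13906 CPM.

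The FGF1 effect differed between Day 5 and Day 1 by a test of the difference itself, being lower on Day 5 for 20 members (25%, against 14.2% of all genes). Day and preparation cannot be told apart in this difference. Without vehicle replicate 2 or 3 of Day 1 the number was 11 (13.75%, against 11.3% and 14.5% of all genes). Among those described above, the differences of the log2 fold changes were −0.36 for Rpl7l1, −0.79 for Rplp0, −1.18 for Rps10, −0.62 for Rps2, −0.43 for Rps27l, −0.23 for Rps6 and −0.60 for Rpsa.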

How the results depend on the processing

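No paired analysis was possible because the labels give no replicate number that groups share. On Day 1 the count of higher members was 33 (41.25%, all genes 23.4%). It was 24 with DESeq2 (30%, all genes 20.2%), 23 with DESeq2 size factors (28.75%, 19.8%) and 27 with quantile normalization (33.75%, 21.1%). Library totals gave 34 (42.5%, 25.4%). With at least 10 counts in every library it was 25 of 78 (32.05%, 23.1%), and in a fit of that day alone 13 (16.25%, 17.6%). With a log2 fold change above 0.5 required it was 6 (7.5%, 11.5%). It ran from 15 to 36 when FGF1 replicate 1 or a vehicle mouse was left out. The count of lower members was 3 (3.75%, all genes 21.6%), and 4 with DESeq2 (5%, all genes 26.4%). It was 0 in a fit of that day alone (all genes 15.8%), with library totals (19.1%) and with a log2 fold change above 0.5 (8.05%). With a mouse left out it ran from 0 to 3. On Day 5 against non-diabetic vehicle mice, with 0 calls, a fit of that day alone gave 2 higher and 8 lower (2.5% and 10%, all genes 11.8% and 9.13%), merged vehicle groups gave 1 higher (1.25%, all genes 7.38%) and the GC correction 1 lower (1.25%, all genes 3.72%). Against diabetic vehicle mice a fit of that day alone gave 3 higher and 19 lower (3.75% and 23.75%, all genes 16.7% and 14.2%), at least 10 counts in every library gave 2 higher (2.56%, all genes 7.49%), the GC correction 2 lower (2.5%, all genes 7.26%) and leaving out diabetic vehicle replicate 1 gave 3 lower (3.75%, all genes 3.19%). For the difference between Day 5 and Day 1, 20 lower members became 12 with DESeq2 size factors (15% against 12% of all genes), 12 with at least 10 counts in every library (15.38% against 13.2%), 11 with quantile normalization (13.75% against 10.3%), 8 with a log2 fold change above 0.5 (10% against 8.52%), 11 without the 2 deep Day 5 libraries (13.75% against 13%) and 11 to 25 with a mouse left out. The cause of these shifts was not tested. The median log2 fold change of Day 1 ran from 0.14 to 0.26 with a mouse left out, and that of Day 42 from −0.16 to −0.01. For 20 calls of named members, 305 values under alternatives kept their sign, and 53 no longer passed, with the difference between Day 5 and Day 1 of Rps6 lost in 9 of 16 and of Rps27l in 7 of 16, Rplp1 and Rps15a on Day 1 in 7 of 15, and Rplp0, Rpsa, Rps2 and Rps10 on Day 1 in none. Depth limits the value of Rps10 in FGF1 replicate 1 of Day 1, which was 0.815 CPM in a library of 1243280 counts.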
